A study of Mus musculus with 13 samples.

Results

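The genes described here encode the enzymes that build, salvage and break down nucleotides, together with the serine and folate enzymes that feed one-carbon units into that synthesis. They were taken from a fixed list of 32 genes, each matched by symbol to 1 row of a gene count table that held values for 55332 genes. The list had 8 genes of phosphoribosyl pyrophosphate (PRPP) and de novo purine synthesis, 3 of the branch from inosine monophosphate (IMP) to guanosine monophosphate (GMP), 4 of purine salvage and breakdown, 4 nucleotide kinases, 5 pyrimidine genes, 5 folate genes and 3 serine synthesis genes.

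The libraries came from 13 mouse NUT carcinoma (mNC) tumors, an aggressive squamous cancer driven by a fusion gene that includes the testis gene Nutm1. All mice carried the NUT carcinoma translocator (NCT) alleles, in which Cre recombinase creates the fusion, so the WT tumors carried the fusion as well. The study asked whether the stem-cell transcription factor Sox2 shapes these tumors, and bulk RNA was sequenced from tumors with and without it. The 4 oral WT tumors were labelled KRT14-Cre; NCT+/-, and the 2 oral KO tumors KRT4Cre; NCT+/-; Sox2fl/fl, where the methods of the study name KRT14-Cre for both. The 4 pancreatic WT tumors were labelled Pdx1-Cre; NCT+/-, and the 3 pancreatic KO tumors Pdx1-Cre; NCT+/-; Sox2fl; fl. KRT14-Cre acts in basal epithelial cells of the mouth, skin and salivary glands, and Pdx1-Cre in the pancreatic lineage, so Sox2 was lost only in cells where the driver was active, and other cells of the host kept it. The labels number the tumors but do not say how many animals they came from, so p-values measure the spread between these tumors.

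Purines are assembled stepwise on PRPP to give IMP, which is converted to the adenine and guanine nucleotides, while pyrimidines are built as a ring first and joined to PRPP later. Serine donates a carbon to folate, in the cytosol and in mitochondria, and the resulting formyl-folate supplies carbons of the purine ring. Growing tumors draw on these routes for RNA and DNA, and the transcription factor Myc, a known output of the Nutm1 fusion, is known to drive many of the genes.

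Libraries held 11735315 estimated counts in oral KO 1 to 120482829 in pancreatic KO 1. Sox2 had 410 to 680 counts in oral WT and 0 to 1 in oral KO tumors, and 1111 to 1487 counts in pancreatic WT and 0 to 2 in pancreatic KO tumors. Oral KO 1 stood apart: protein-coding genes took 59.5% of its counts, against 84.5% to 91.7% in the other 12 libraries, and the 7SL RNA genes Rn7s1 and Rn7s2 took 16.6%. All 32 members passed the count filter in every comparison, and the lowest count of any member in any tumor was 96. The basal squamous markers Trp63 (440 to 1040 normalised read counts, CPM, scaled to a common library total) and Krt5 (1140 to 6780 CPM) were present in all 13 tumors.

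Between genes, levels were compared per kilobase of exon (CPM per kb, mean ± SD over tumors of a group). The length was that of all annotated exons of a gene merged, which can exceed the mRNA counted. The order below therefore depends partly on annotation. Without division by length, the oral WT mean was lower for Ada (13.2 CPM) than for Dhodh (16.3 CPM). In oral WT tumors (n = 4) the highest level was that of Nme2, a nucleoside diphosphate kinase, at 69.9 ± 19.2 CPM per kb. The next levels were those of the salvage enzyme Hprt (59.0 ± 7.73), the de novo purine enzyme Paics (54.6 ± 14.7) and the guanine branch enzyme Impdh2 (51.6 ± 8.82), and these neighbours in the order lay within their spread of each other. At the bottom stood Dhodh, the mitochondrial step of pyrimidine synthesis, at 2.58 ± 0.178 CPM per kb, below Psph (4.22 ± 0.320), Pnp (4.44 ± 0.688) and Mthfd2 (4.76 ± 0.779). Pancreatic WT tumors (n = 4) had the same 4 genes on top, with Nme2 at 84.4 ± 11.3, Hprt at 72.4 ± 9.0, Paics at 54.1 ± 15.8 and Impdh2 at 53.2 ± 8.77 CPM per kb. Dhodh was again lowest, at 1.86 ± 0.0987, followed by Psph (3.11 ± 0.849) and Ada (3.39 ± 1.31). Ada, which breaks down adenosine, left the bottom of the order in the oral KO tumors, at 44.0 ± 21.5 CPM per kb (n = 2). Its gap there to Nme2, at 39.3 ± 3.31 CPM per kb, lay within that spread.

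**Figure D1:**
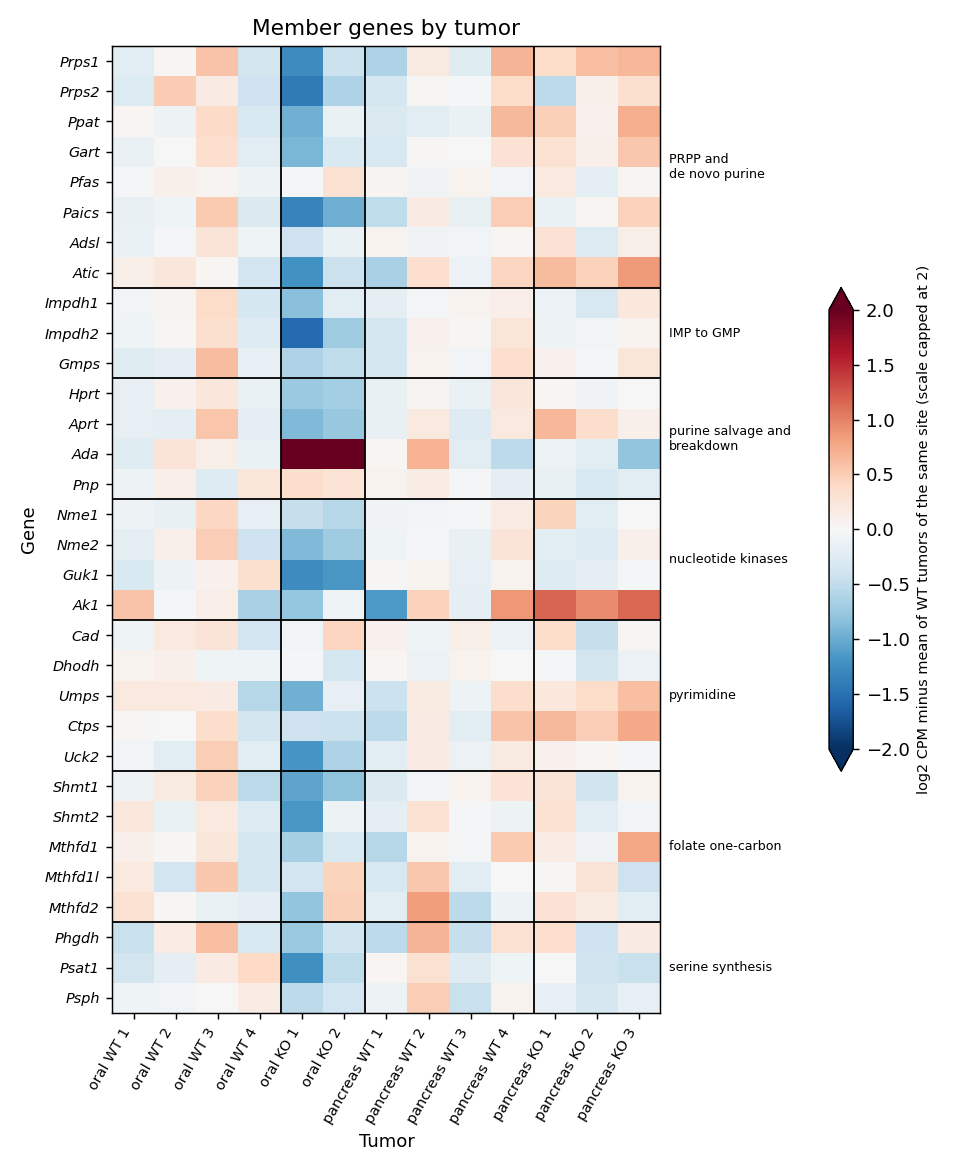
Each cell is the log2 CPM of a member gene (rows, grouped by role) in a tumor (columns), minus the mean of the WT tumors of the same site, on a color scale capped at 2 in either direction. Oral KO 1 lies below the WT mean for 30 of 32 members and oral KO 2 for 26, with Ada above it in both, while the pancreatic KO columns are mixed. Single WT tumors also lean to one side: oral WT 4 lies below that mean for 28 members and oral WT 3 above it for 29.

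In oral tumors, loss of Sox2 came with more mRNA for Ada and less for Guk1 and Paics. These were the only 3 members past an adjusted p of 0.05 in edgeR's quasi-likelihood test with Benjamini-Hochberg adjustment over 22342 genes. Of the 32, 1 rose and 2 fell, while 9.20% of all genes tested were higher and 4.58% lower, or 3.51% and 5.74% of the 16352 protein-coding genes among them. The fitted log2 fold changes of 26 members were below 0, and the member median was -0.476, against -0.003 over all genes and -0.210 over protein-coding genes. In 18 members both oral KO tumors lay below all 4 WT tumors, and in 2 (Ada and Pnp) above them. Over protein-coding genes the same held for 32.2% (lower) and 12.4% (higher).

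The size of the shared lowering depended on the library and on the scale. The median member lay 0.81 below the WT mean (log2) in oral KO 1 and 0.39 below it in oral KO 2, where the median protein-coding gene lay 0.22 and 0.21 below. In single oral WT tumors the median member lay at -0.26 to 0.26 from that mean. Without oral KO 1 the member median of the fitted changes was -0.36, and without oral KO 2 it was -0.73. When protein-coding genes alone entered library sizes and test, the member median was -0.28, Ada was called with a log2 fold change of 3.01 (adjusted p = 0.0238, edgeR), and 0 members were called lower. On that scale 12 members (37.5%) lay below all WT tumors, against 21.9% of protein-coding genes tested, and 3 (9.38%) lay above them, against 17.8%. The median member there was at -0.58 in oral KO 1 and -0.18 in oral KO 2, against -0.25 to 0.24 in oral WT tumors. Only oral KO 1 thus lay outside the WT range. In these bulk libraries fewer cells of a type and less RNA per cell cannot be told apart.

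**Figure D2:**
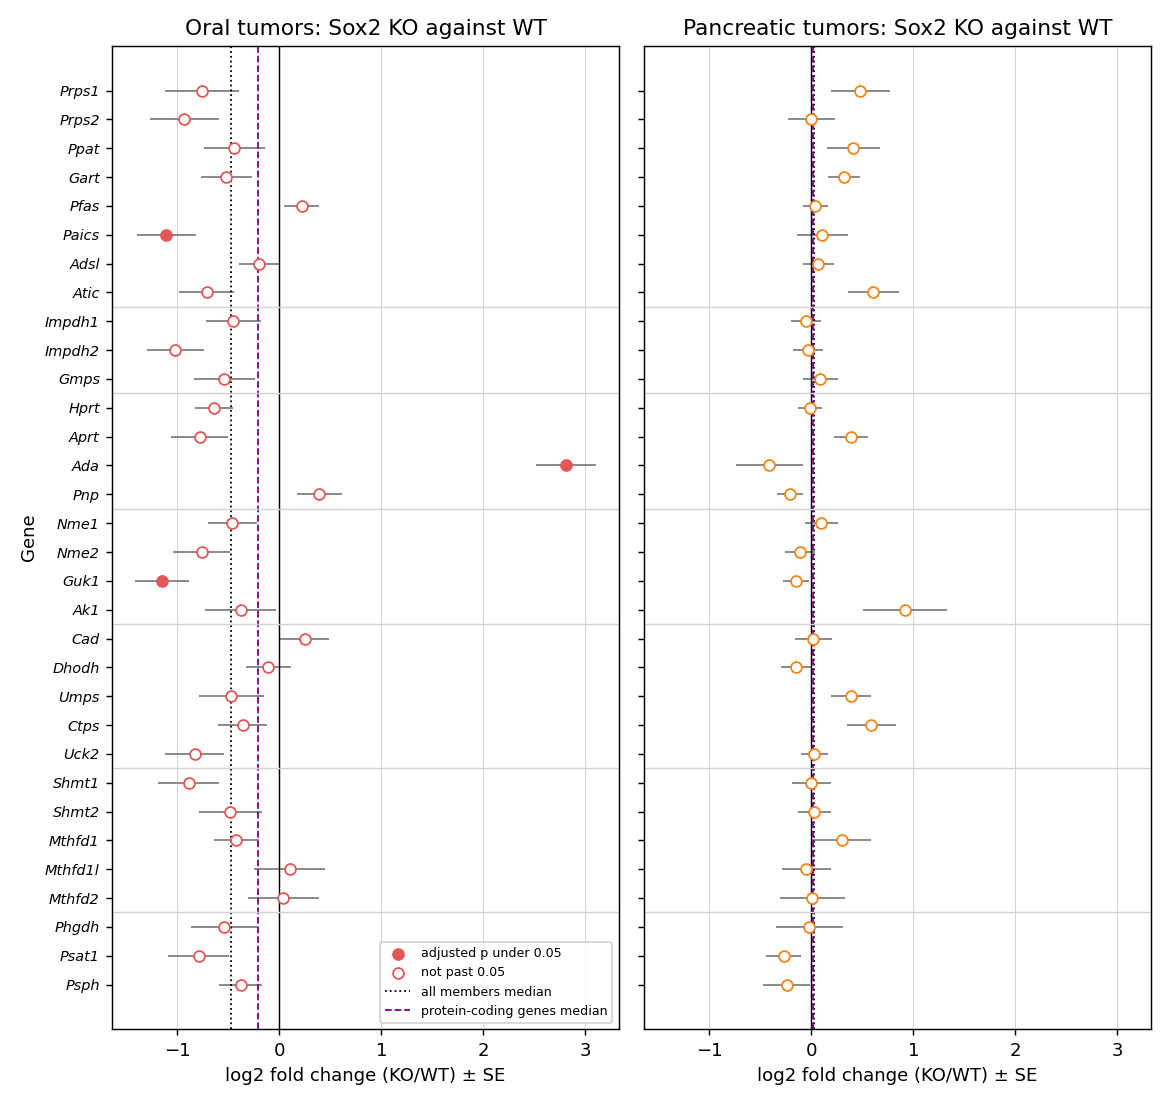
Log2 fold change of KO over WT (horizontal axis) with its standard error for the 32 members in oral (left) and pancreatic tumors (right); filled points passed an adjusted p of 0.05, and dotted and dashed lines mark the member and protein-coding medians. Oral estimates run from -1.15 to 2.81 and pancreatic estimates from -0.41 to 0.92.

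Purine salvage and breakdown held the one member that rose. Ada, adenosine deaminase, turns adenosine and deoxyadenosine into inosine and deoxyinosine, and in mice it is known to be abundant in squamous epithelium of the upper digestive tract. It measured 11, 15.6, 14.1 and 11.9 CPM in oral WT tumors 1 to 4 and 57.8 and 119 CPM in oral KO tumors 1 and 2. Both KO tumors lay far above all WT tumors, and the fitted difference was 7.03-fold (log2 fold change 2.81, SE 0.29, edgeR adjusted p = 0.0117). Ada stayed called in all 16 alternative settings, with log2 fold changes of 2.25 to 3.23 and adjusted p of 3.14e-11 to 0.0467. Pnp, which splits inosine and guanosine in the next step, was at 14.6 to 20.7 CPM in WT and 21.3 to 22.4 CPM in KO tumors and did not pass (log2 fold change 0.39, adjusted p = 0.248). Pnp shares sequence with its near copy Gm49342, and with both summed the difference of group means was -0.08 (log2), against 0.32 for Pnp alone.

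The 2 salvage enzymes that rebuild nucleotides from free bases had estimates below 0. Hprt, which recovers hypoxanthine and guanine, measured 67.2, 80.2, 88.2 and 68.7 CPM in WT and 45.0 and 47.4 CPM in KO tumors. The groups did not overlap, but the test missed the threshold (log2 fold change -0.64, SE 0.19, adjusted p = 0.064). Aprt, its counterpart for adenine, measured 58.4, 57.0, 96.0 and 56.9 CPM in WT and 35.4 and 38.6 CPM in KO tumors (log2 fold change -0.78, adjusted p = 0.0985).

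Among the nucleotide kinases, which add phosphates to finished nucleotides, Guk1 fell. Guk1, the guanylate kinase that makes GDP from GMP, measured 21, 24.3, 27.7 and 32.7 CPM in WT and 10.9 and 11.6 CPM in KO tumors. The KO tumors were close together and 2.22-fold lower in the fit (log2 fold change -1.15, SE 0.26, edgeR adjusted p = 0.0324). Nme2 had a log2 fold change of -0.76 (adjusted p = 0.104), Nme1 of -0.46 and the adenylate kinase Ak1 of -0.38. Nme1 and Nme2 share sequence with the readthrough gene Gm20390, which held 16.4% to 42.8% of the counts of each pair, so their split is uncertain.

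Of the de novo purine genes 1 of 8 fell and 7 had estimates below 0. Paics, which carries out the carboxylation and the following ligation in the middle of the pathway, measured 151, 157, 240 and 137 CPM in WT and 66.5 and 84.8 CPM in KO tumors. The groups did not overlap, and the fitted level was 2.16-fold lower in KO tumors (log2 fold change -1.11, SE 0.29, edgeR adjusted p = 0.0451). The PRPP synthetases had log2 fold changes of -0.93 (Prps2, adjusted p = 0.0987) and -0.76 (Prps1, adjusted p = 0.176). Atic, which closes the ring to IMP, was at -0.71 (adjusted p = 0.11), the trifunctional Gart at -0.52, the committed-step enzyme Ppat at -0.44 and Adsl at -0.20. Pfas, the fourth step of the route from PRPP, was the exception in sign at 0.22 (adjusted p = 0.387). Prps1 shares sequence with Prps1l3, which held 38.3% to 66.4% of the counts of the pair.

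Both calls of lower genes were sensitive to single libraries. Guk1 was called in 8 and Paics in 9 of 16 alternatives. The count of members called lower was 0 without oral KO 1, without oral KO 2, without oral WT 1 or without oral WT 2, and 1 without oral WT 3. It was 5 in DESeq2 and 10 when all 13 tumors shared 1 fit.

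The guanine branch had 3 estimates below 0 and no call. Impdh2, the main IMP dehydrogenase of growing cells and the rate-limiting step toward GMP, measured 147, 160, 196 and 132 CPM in WT and 53.6 and 95.6 CPM in KO tumors. Its log2 fold change of -1.02 (SE 0.28) fell just short of the threshold (edgeR adjusted p = 0.0536). Gmps, which completes GMP, had -0.54 (adjusted p = 0.24) and the second dehydrogenase Impdh1 -0.45 (adjusted p = 0.272).

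**Figure D3:**
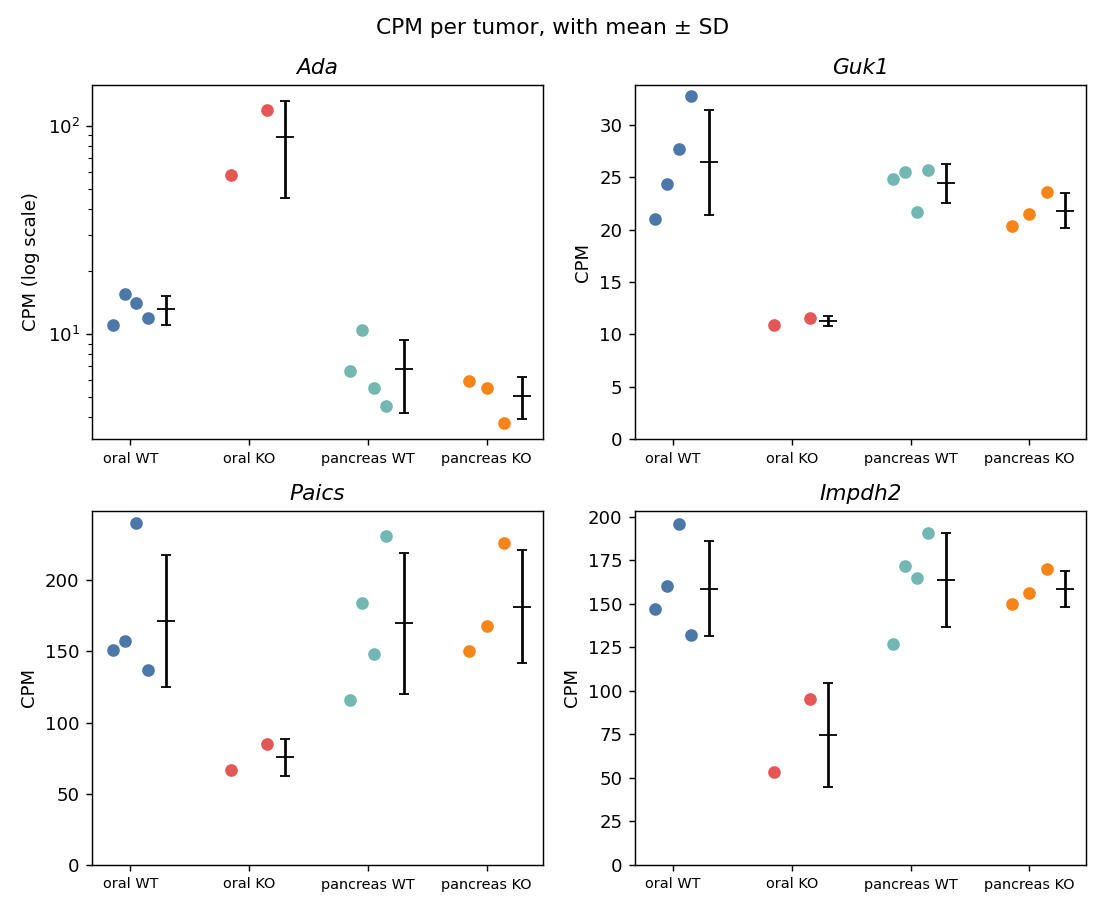
CPM of Ada (log axis), Guk1, Paics and Impdh2 (linear axes from 0), 1 point per tumor, with group mean ± SD as a black bar. Ada separates the oral KO tumors (57.8 and 119 CPM) from all others (3.74 to 15.6 CPM), and the other 3 genes are lower in the oral KO tumors than in any other tumor.

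Because Myc and related factors bind the E-box CACGTG, which reads the same on both strands, the promoters of the members were searched for it. The windows ran from 250 bases before to 50 after each RefSeq start (GRCm38.p6) and were found for 30 of the 32 members. An E-box stood in a window of 4 members (13.3%), namely Paics, Impdh2, Atic and Nme1, and of 8.09% of the 27025 genes with a window. The sites are shown with up to 12 bases on either side, 5′ to 3′ along the gene, with the E-box in capitals, since results described here turn on Paics, Impdh2 and Atic. They lie at chr5:76951087-76951116 on the + strand for Paics, chr9:108560314-108560343 on the + strand for Impdh2, chr1:71557137-71557166 on the + strand for Atic, and chr11:93968037-93968066 and chr11:93968273-93968302 on the - strand for the windows of different Nme1 starts.
Paics: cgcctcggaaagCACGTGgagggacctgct
Impdh2: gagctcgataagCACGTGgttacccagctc
Atic: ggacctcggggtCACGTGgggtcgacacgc
Nme1: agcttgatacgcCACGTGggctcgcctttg
Nme1, other start: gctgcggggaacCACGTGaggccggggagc
The Paics E-box begins 203 bases before its start and inside the span of Ppat, which is transcribed away from Paics on the other strand. That of Impdh2 begins 110 bases and that of Atic 7 bases before the start. Ada, Guk1, Aprt and Hprt, the other 4 of the 7 members whose response differed between sites of origin in the test given further on, had no E-box in these windows. The core GCATGCGC of the motif of the nuclear respiratory factor NRF1, searched on both strands, stood in windows of Ctps, Ppat and Shmt2 (3 of 30 members, 3.05% of genes). The amino acid response motif TGATGNAAN stood in that of Prps1 (3.33% of members, 4.5% of genes). A match describes the letters in the window and not a bound site. The part of these motifs, or of Myc, in the differences between tumors was not tested.

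No pyrimidine gene was called in oral KO tumors. The largest difference was in Uck2, which salvages uridine and cytidine, at 173, 156, 254 and 154 CPM in WT and 79.8 and 118 CPM in KO tumors (log2 fold change -0.83, SE 0.29, edgeR adjusted p = 0.0915). The KO tumors lay below every WT tumor. De novo genes had log2 fold changes of -0.47 (Umps, the last steps to UMP), -0.36 (Ctps, which makes CTP) and -0.11 (Dhodh). Cad, the trifunctional enzyme that starts the pathway, had 80.3 to 125 CPM in WT and 100 and 140 CPM in KO tumors, an estimate of 0.25 (adjusted p = 0.472).

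Folate and serine genes were also without calls. Shmt1, the cytosolic enzyme that moves a carbon from serine to folate, measured 44.7, 54.4, 65.9 and 33.0 CPM in WT and 23.2 and 27.6 CPM in KO tumors (log2 fold change -0.89, SE 0.30, edgeR adjusted p = 0.0854). The groups did not overlap. Its mitochondrial partner Shmt2 had -0.48 and the cytosolic Mthfd1, which interconverts one-carbon folates, had -0.42. The mitochondrial Mthfd1l and Mthfd2 were near 0, at 0.10 and 0.04. In serine synthesis, Psat1, the transaminase of the second step, measured 75.6, 85.7, 110 and 128 CPM in WT and 41.7 and 68.7 CPM in KO tumors (log2 fold change -0.79, SE 0.30, adjusted p = 0.109). Phgdh, the first step, had -0.54 and Psph, the last, -0.38.

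Markers of other cell populations and states were measured beside these changes. All 20 skeletal muscle markers had estimates above 0 in oral KO tumors (3 called), and their summed level was 38.4 to 680 CPM in WT and 3370 and 6080 CPM in KO tumors. Acta1, a muscle actin, was at 0.0308 to 33.1 CPM in WT and 96.5 and 230 CPM in KO tumors, and Ckm and Ttn followed the same order of groups. Krt4, a keratin of differentiated oral epithelium, was 4.22-fold higher in KO tumors (184 to 496 against 1010 and 1420 CPM, adjusted p = 0.0268). Its partner Krt13 had 203 to 671 against 939 and 991 CPM (log2 fold change 1.52, adjusted p = 0.0643), while the whole list of 20 differentiated squamous markers had 11 estimates above and 9 below 0. Of 20 proliferation markers 18 had estimates below 0 (median -0.711, 0 called), though Mki67 was at 321 to 431 CPM in WT and 247 and 456 CPM in KO tumors. Myeloid markers had 9 of 12 estimates below 0 (4 called). Lymphocyte markers had calls in both directions, Cd3d higher (log2 fold change 2.1, adjusted p = 0.0338) and Cd4 lower (-2.26, adjusted p = 0.0414). Of 10 fibroblast markers 3 fell, namely the matrix proteoglycans Dcn (812 to 979 CPM in WT, 37.1 and 123 CPM in KO tumors, adjusted p = 0.0196) and Lum (log2 fold change -2.09, adjusted p = 0.0347) and the matrix protein gene Fbln1 (-0.71, adjusted p = 0.0377). The basal keratin Krt15 fell 8.65-fold (74.4 to 374 against 14.2 and 30.7 CPM, adjusted p = 0.0398), the 1 call among 10 basal squamous markers. The acinar enzymes Cpa1 and Prss2 and the fat cell hormone Adipoq were at 0 to 0.276 CPM in the oral tumors. The part of these markers in the changes of Ada, Guk1 and Paics was not tested.

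The wider pathways, from lists that hold none of the 32 members, had calls in both directions in oral KO tumors. These are to be read against the 9.20% of genes higher and 4.58% lower, or 3.51% and 5.74% of protein-coding genes. Among 29 tested purine enzymes, Ampd1, the AMP deaminase of skeletal muscle, rose 5.01-fold (0.221 to 0.348 against 1.13 and 1.59 CPM, edgeR adjusted p = 0.0262) and the mitochondrial kinase Ak3 fell (log2 fold change -0.88, adjusted p = 0.0268). Of 15 other pyrimidine enzymes, Upb1, which degrades pyrimidines, rose by 1.43 (log2, adjusted p = 0.044), while the nucleotidase Nt5c fell (log2 fold change -1.06, adjusted p = 0.0285). Of 10 genes of deoxynucleotide supply 0 were called (1 at an unadjusted p under 0.05) and the median was -0.317.
Among the other folate genes, Aldh1l1, which oxidizes formyl-folate, fell (log2 fold change -1.62, adjusted p = 0.0395). Asns, which makes asparagine, and Slc3a2, an amino acid transporter chain, fell among 12 genes of the Atf4 amino acid response (log2 fold changes -0.82 and -0.78). Mnt, which opposes Myc by sharing its partner Max, fell among 11 genes of the Myc network (log2 fold change -0.79, adjusted p = 0.0395), and Myc itself had 120 to 189 CPM in WT and 94.5 and 122 CPM in KO tumors (adjusted p = 0.151). Ahcy of the methionine cycle fell in the fit (log2 fold change -4.96, adjusted p = 0.014). It shares 68.7% of its 31-base words with Gm4737, and the difference of group means was -5.30 (log2) for Ahcy and -1.13 for the sum of both.

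In pancreatic tumors loss of Sox2 left 0 of 32 members past the threshold. Of 24653 genes tested, 0.349% were higher and 0.357% lower. The member median was 0.024, against 0.022 over all genes, with 20 estimates above and 12 below 0. At an unadjusted p under 0.05 there were 2 members, Ctps and Atic, and DESeq2 also called 0. Both KO-above-WT separations, in Atic and Ak1, compare with 6.00% of protein-coding genes, and no member lay below all WT tumors, against 10.6%.

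Atic and Ctps had the smallest p-values. Atic measured 45.9, 90.6, 66.3 and 97.4 CPM in WT tumors 1 to 4 and 112, 99.0 and 129 CPM in KO tumors 1 to 3 (log2 fold change 0.61, SE 0.25, edgeR adjusted p = 0.292). All 3 KO tumors lay above the WT tumors, though 2 WT tumors came close. All 8 de novo purine genes had estimates of 0.00 or more, among them Prps1 at 0.48, Ppat at 0.41 and Gart at 0.32. Ctps measured 23.4, 37.4, 28.8 and 49.8 CPM in WT and 52.4, 47.1 and 56.6 CPM in KO tumors (log2 fold change 0.59, SE 0.24, adjusted p = 0.289). Here WT 4 lay among the KO tumors.

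Ak1 had the largest estimate, with 24.1, 73.5, 46.3 and 97.4 CPM in WT and 119, 102 and 118 CPM in KO tumors. The WT tumors spread over the widest range of any nucleotide kinase, and the difference did not pass (log2 fold change 0.92, SE 0.41, edgeR adjusted p = 0.339). Ada, the member that rose in oral tumors, measured 6.64, 10.5, 5.52 and 4.49 CPM in pancreatic WT and 5.96, 5.48 and 3.74 CPM in KO tumors, an estimate of -0.41 (SE 0.33, adjusted p = 0.59). Mthfd1 had the largest folate estimate, with 26.2, 41.0, 38.2 and 56.1 CPM in WT and 43.2, 37.1 and 66.8 CPM in KO tumors (0.30, adjusted p = 0.671). Psat1 led the serine genes, with 85.5, 103, 69.0 and 77.6 CPM in WT and 83.6, 63.1 and 60.8 CPM in KO tumors (-0.27, adjusted p = 0.494). Gmps led the guanine branch at 51.4, 68.9, 63.0 and 82.3 CPM in WT and 69.3, 63.7 and 77.5 CPM in KO tumors, an estimate of 0.09 (adjusted p = 0.832). In these groups the KO values lay within or beside the WT range.

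The other pathway genes had no call in the pancreas either: 0 of 29 purine, 0 of 15 pyrimidine, 0 of 10 deoxynucleotide, 0 of 22 folate, 0 of 10 methionine cycle, 0 of 12 Atf4 and 0 of 11 Myc network genes passed in edgeR, with 6, 2, 1, 4, 0, 3 and 2 of them at an unadjusted p under 0.05. Among marker genes Krt4 fell 11-fold, from 1420 to 2950 CPM in WT to 178 to 217 CPM in KO tumors (adjusted p = 0.00256). Krt13 fell 12.9-fold (adjusted p = 0.0163), and all 20 differentiated squamous markers had estimates below 0. Acinar enzymes were high in pancreatic KO 3 alone, with Cpa1 at 18 CPM there and 0.0986 to 0.594 CPM in the other 6 pancreatic tumors. Muscle markers summed to 22.4 to 55.2 CPM in all pancreatic tumors. The fibroblast marker Mfap5 rose in pancreatic KO tumors (log2 fold change 1.19, edgeR adjusted p = 0.0355).

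The difference between the oral and the pancreatic response was itself tested, in 1 fit of all 13 tumors that uses the same WT tumors as the comparisons above. An estimate above 0 means that KO minus WT was higher in oral than in pancreatic tumors. Ada was higher by this measure (log2 difference 3.17, SE 0.47, edgeR adjusted p = 0.0055), and 6 members were lower. Over the 25836 genes tested 7.71% were higher and 7.62% lower. Of the 17462 protein-coding genes among them, 615 were higher and 1746 lower. The median estimate was -0.699 over the members, against -0.028 over all genes and -0.279 over protein-coding genes. The lower members were Atic (-1.38, adjusted p = 0.0385), Paics (-1.27, adjusted p = 0.0454), Aprt (-1.23, adjusted p = 0.0279), Guk1 (-1.06, adjusted p = 0.0182), Impdh2 (-1.05, adjusted p = 0.0416) and Hprt (-0.70, adjusted p = 0.0368). Outside the members, the same test called 4 of 29 other purine enzymes lower and 1 higher. It called the pyrimidine enzymes Nt5c (-1.55, adjusted p = 0.00794), Tymp (-2.73, adjusted p = 0.0296) and Uck1 (-0.86, adjusted p = 0.0396) lower. Tymp shares 41.21% of its 31-base words with Sco2, which held 83.4% to 94.7% of the counts of the pair. The oral KO minus WT difference of group means was -2.04 (log2) for Tymp and -1.21 for the sum of both. Gcsh (-0.90, adjusted p = 0.0328) of the glycine cleavage system, which feeds folate, was also called lower. The Myc network genes Max (-0.85, adjusted p = 0.0194) and Mnt (-1.05, adjusted p = 0.0248) were called lower. So were Aars (-0.88), Sars (-0.98) and Gars (-0.89) of the Atf4 list. Among markers of other cells and states, 4 of 12 myeloid and 2 of 10 fibroblast markers were called lower. Of differentiated squamous markers 7 of 20 were called higher, and of muscle markers 3 of 20. The basal Krt5 (-1.33), the proliferation markers Mcm4 (-1.0) and Pcna (-0.94) and the lymphocyte marker Cd4 (-3.43) were called lower. The part of these markers in the differences was not tested.

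The values behind these tests can be read across sites. Aprt measured 61.2, 77.3, 56.4 and 77.7 CPM in pancreatic WT and 107, 85.8 and 72.6 CPM in pancreatic KO tumors, against the lower oral KO values given above. Hprt measured 83.8, 96.7, 84.4 and 108 CPM in pancreatic WT and 94.1, 88.2 and 93.2 CPM in pancreatic KO tumors. Guk1 measured 24.8, 25.5, 21.7 and 25.7 CPM in pancreatic WT and 20.3, 21.5 and 23.6 CPM in pancreatic KO tumors. For Hprt and Guk1 the pancreatic groups thus stayed close together. Paics measured 116, 184, 148 and 231 CPM in pancreatic WT and 150, 168 and 226 CPM in pancreatic KO tumors, and Impdh2 127, 172, 165 and 191 against 150, 156 and 170 CPM. Both genes overlapped fully between the pancreatic genotypes.

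Ada kept its call in all 22 alternatives of this test (log2 difference 2.56 to 3.54) and Guk1 in 21 of 22, missing it without oral KO 1 (adjusted p = 0.0502). Without oral KO 1, 0 members were called lower. With protein-coding genes alone, Ada (3.37) and Guk1 (-0.86) were called and no other member.

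Among WT tumors, several members were higher in oral than in pancreatic tumors. Of the 32, 8 were higher and 1 lower in the same fit, against 11.3% and 11.0% of the 25836 genes tested. The member median was 0.275, against 0.005 over all genes. Groups did not overlap in 7 members that were higher and 1 that was lower in oral tumors, and among protein-coding genes in 15.8% and 15.5%.

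**Figure D4:**
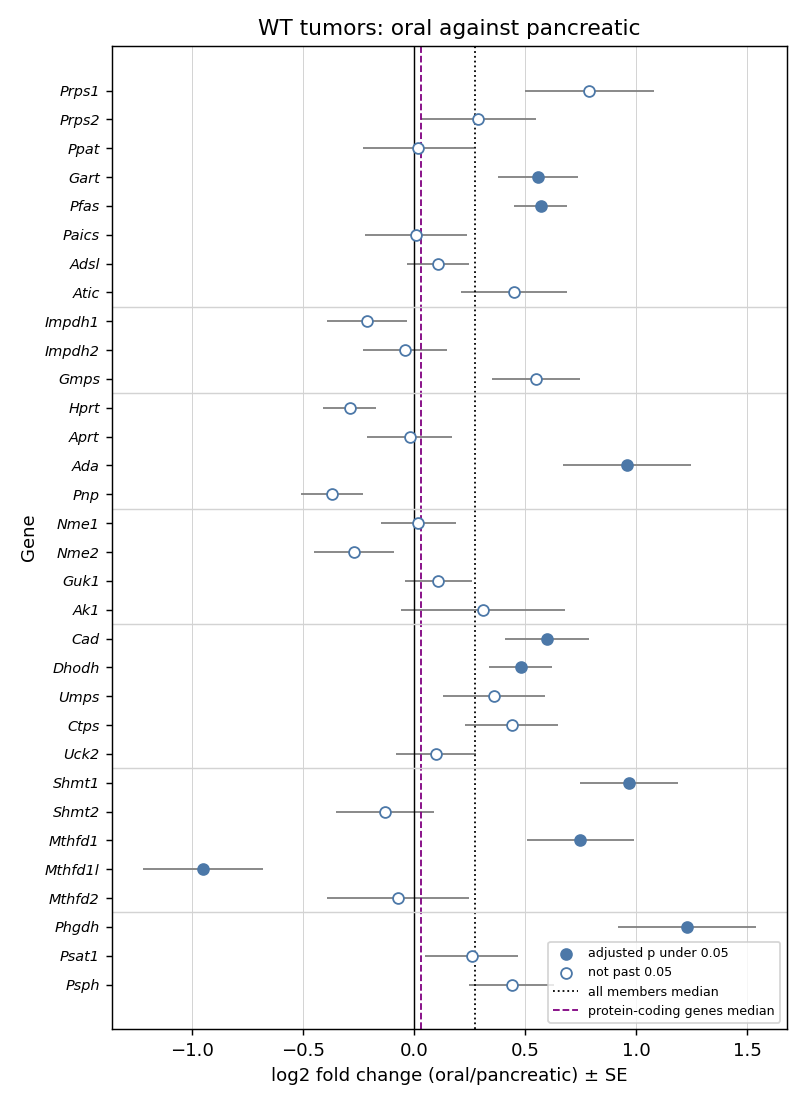
Log2 fold change of oral over pancreatic WT tumors (horizontal axis) with its standard error for the 32 members; filled points passed an adjusted p of 0.05. Phgdh (1.23) and Shmt1 (0.97) lie farthest to the right among the called genes, with Ada at 0.96, and Mthfd1l (-0.95) alone is called on the left.

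The largest difference was in Phgdh, the entry into serine synthesis, at 41.6, 62.2, 85.3 and 45.7 CPM in oral WT and 16.3, 37.7, 17.0 and 28.9 CPM in pancreatic WT tumors (2.35-fold, log2 1.23, SE 0.31, edgeR adjusted p = 0.0139). Phgdh shares 44.8% of its 31-base words with the pseudogene Gm7901, which held at most 6.05% of the counts of the pair. The other serine genes had 0.44 (Psph, adjusted p = 0.11) and 0.26 (Psat1).

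Of the 5 folate genes, 2 were higher and 1 lower in oral WT tumors. The cytosolic Shmt1 was 1.95-fold higher in oral WT tumors, where it measured 33.0 to 65.9 CPM, than in pancreatic WT tumors at 20.6, 24.1, 26.4 and 30.3 CPM (log2 0.97, SE 0.22, adjusted p = 0.00754). The cytosolic Mthfd1 measured 71.9, 68.2, 78.8 and 52.7 against 26.2, 41.0, 38.2 and 56.1 CPM (log2 0.75, SE 0.24, adjusted p = 0.0412), with a slight overlap. The mitochondrial Mthfd1l, which makes formate from formyl-folate, ran the other way, at 47.3, 32, 60.3 and 32.5 against 64.4, 118, 69.1 and 80.5 CPM (log2 -0.95, SE 0.27, adjusted p = 0.0274). Shmt2 and Mthfd2, also mitochondrial, had estimates of -0.13 and -0.07.

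Purine and pyrimidine synthesis each had 2 calls. Pfas measured 67.3, 74.1, 71.5 and 64.2 CPM in oral WT and 48.4, 44.4, 48.6 and 44.6 CPM in pancreatic WT tumors (log2 0.57, SE 0.12, adjusted p = 0.00449). Gart measured 86.4, 93.8, 120 and 81.9 against 51.3, 64.7, 64.5 and 77.8 CPM (log2 0.56, SE 0.18, adjusted p = 0.0409). These groups did not overlap, and the tumors of each site were tight in Pfas.
Cad measured 98.6, 119, 125 and 80.3 against 73.9, 65.5, 75.4 and 64.0 CPM (log2 0.60, SE 0.19, adjusted p = 0.0395). Dhodh measured 17.1, 17.5, 15.4 and 15.4 against 12.1, 10.9, 12.3 and 11.7 CPM (log2 0.48, SE 0.14, adjusted p = 0.0325). Of the salvage and breakdown genes, Ada was 1.94-fold higher in oral WT tumors, with the values given above (log2 0.96, SE 0.29, adjusted p = 0.0329). Prps1 (0.79, adjusted p = 0.0726) and Gmps (0.55, adjusted p = 0.0675) came next without passing. For Prps1 the difference of group means was 0.82 (log2) alone and 0.36 when summed with its near copy Prps1l3.
Pfas, Shmt1 and Phgdh were called in all 23 alternatives. The count of members called higher was 3 to 8 when single tumors were left out, with 3 without oral WT 2, without pancreatic WT 1 or without pancreatic WT 3, and 4 without oral WT 1 or without oral WT 3. It was 5 without pancreatic WT 2. Mthfd1l was not called without oral WT 2, pancreatic WT 2 or pancreatic WT 4. Markers of cell populations also differed between sites. Of 10 fibroblast markers 8 were called higher in oral WT tumors, and their summed level was 9530 to 19900 CPM there and 1230 to 2400 CPM in pancreatic WT tumors. Of 10 basal squamous markers 6 were called lower and 1 higher in oral WT tumors, with summed levels of 5350 to 10200 against 11300 to 19700 CPM. Muscle markers were called higher in 10 of 20. Myc measured 120 to 189 CPM in oral WT and 245 to 323 CPM in pancreatic WT tumors (log2 -0.81, edgeR adjusted p = 0.00407). Their part in these differences was not tested.

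Ratios of partner enzymes within a tumor do not depend on library scaling. For 5 pairs and 3 comparisons, 15 exact permutation tests over tumors (two-sided) were made, and none passed Benjamini-Hochberg adjustment. The smallest p possible was 0.0667 in oral, 0.0286 in pancreatic and 0.0286 in site comparisons.
The log2 ratio of Impdh2 to Impdh1 was 1.80, 1.80, 1.78 and 1.93 in oral WT tumors and 1.10 and 1.34 in oral KO tumors. The KO tumors had the lower ratio in 2 of 2 cases, a difference of -0.61 (exact permutation p = 0.0667, adjusted p = 0.167). In pancreatic tumors the same ratio was 1.48 to 1.75 in WT and 1.51 to 1.92 in KO, so that the groups overlapped. Between sites, the ratio of mitochondrial Mthfd1l to cytosolic Mthfd1 was -1.09 to -0.39 in oral WT and 0.52 to 1.52 in pancreatic WT tumors (difference -1.74, exact permutation p = 0.0286, adjusted p = 0.143). The ratio of mitochondrial Shmt2 to cytosolic Shmt1 was 1.11 to 1.75 in oral WT and 2.13 to 2.86 in pancreatic WT tumors (difference -1.07, exact permutation p = 0.0286, adjusted p = 0.143). Both compartment ratios thus separated the WT tumors of the sites without overlap. So did Impdh2 to Impdh1, at 1.78 to 1.93 in oral WT and 1.48 to 1.75 in pancreatic WT tumors (difference 0.18, exact permutation p = 0.0286, adjusted p = 0.143). The ratio of Prps2 to Prps1 in the pancreas was 1.71 to 2.27 in WT and 1.14 to 1.67 in KO tumors (difference -0.57, exact permutation p = 0.0571, adjusted p = 0.167), and Nme2 to Nme1 overlapped in all 3 comparisons. The Prps ratio depends on how counts were split between Prps1 and its near copy Prps1l3. In the pancreas the KO minus WT difference of group means was 0.54 (log2) for Prps1 and 0.28 for the sum of both.

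**Figure D5:**
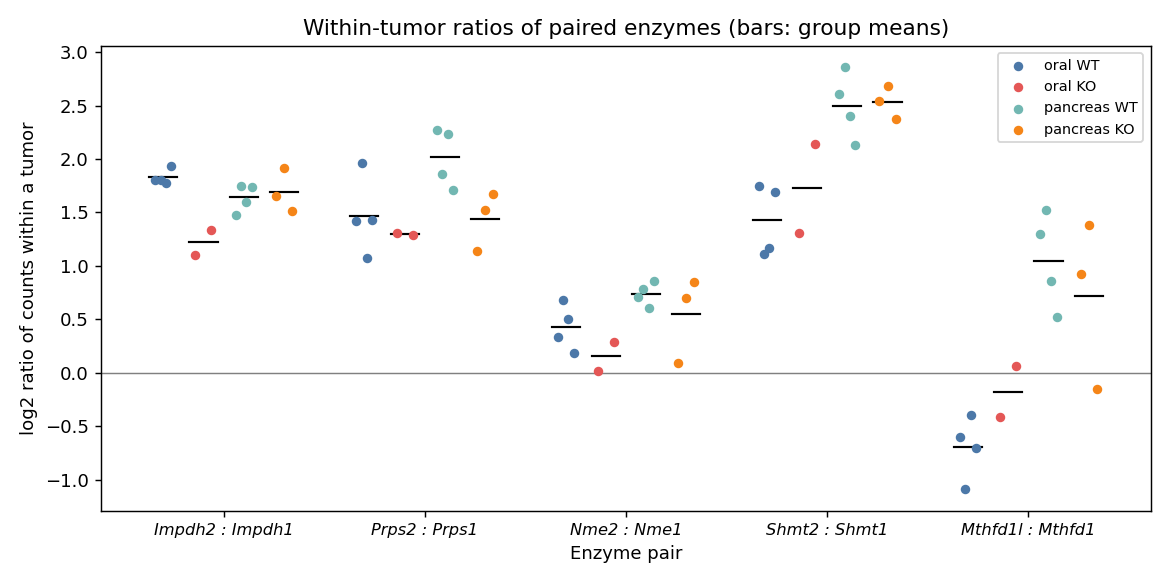
Log2 ratio of the counts of partner enzymes within a tumor (vertical axis), 1 point per tumor and a bar at each group mean, for 5 pairs. The Mthfd1l to Mthfd1 ratio is below 0 in the 4 oral WT tumors and above 0 in the 4 pancreatic WT tumors, and the Impdh2 to Impdh1 ratio is lowest in the 2 oral KO tumors.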

How the data were processed

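Total RNA from each tumor was depleted of ribosomal RNA and sequenced as stranded libraries. The authors trimmed reads with Trim Galore 0.6.10, checked them with FastQC 0.12.1, quantified them by strand with kallisto 0.50.0 on GENCODE mouse release M23 (GRCm38) and summed transcripts to genes with tximport. The table they deposited holds estimated counts per gene, not normalized, of which 27.3% of values are not whole, and these were rounded. Symbols, gene types and positions came from GENCODE M21, which named 55141 of the 55332 genes with values, and 753 rows had no values. Counts without a symbol were at most 0.0276% of a library.

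A gene entered a fit when 2 or more of its tumors held 10 counts or more, and was tested with edgeR 4.0.16 (TMM scaling, robust quasi-likelihood F test, R 4.3.3), and p-values were adjusted by Benjamini-Hochberg over all genes tested. A gene was called at an adjusted p under 0.05, and rose or fell is written for called genes. Oral and pancreatic tumors were fitted separately for KO against WT; the site and interaction tests used all 13 tumors. CPM values are scaled by TMM over all 13 tumors. DESeq2 1.42.0 and other settings were tried as alternatives, and the fit was tested on simulated data. Ratios used counts plus 0.5. The members and lists were chosen with earlier results of these data known. All 32 members are named, with values in every tumor for called members and the largest difference of each role; of the other pathway lists, genes called for KO against WT are named, apart from an item that is not reported here. Sequence sharing was counted over words of 31 bases; 26 of 32 members share under 10%. Same-numbered oral tumors did not deviate together (correlations of -0.10 and -0.07). In pancreatic tumors the correlation was 0.40 for number 1, and -0.03 and -0.08 for numbers 2 and 3. The labels state no pairing, so numbers were not taken as pairs. Depth of 11735315 to 120482829 counts limits mainly the oral KO values.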

Additional observations from a re-analysis of the deposited data

Results flagged for a closer look

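In 5 of 64 groups of 4 WT tumors, 1 tumor lay far from the other 3 by Dixon's criterion, which chance alone meets in about 1 of 20 groups. Oral WT 3 was high in Gmps (144 CPM, others 79.2 to 83.7), Aprt (96.0 CPM, others 56.9 to 58.4) and Nme1 (78.7 CPM, others 52.5 to 55.2). In that tumor 29 of 32 members were above the oral WT mean. Oral WT 4 was low in Umps (23.8 CPM, others 39.9 to 40.8), and 28 members were below the mean there. Pancreatic WT 4 was high in Ppat (66.2 CPM, others 34.4 to 38.4).

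The change from WT to KO differed between oral and pancreatic tumors, by the edgeR interaction test, in 7 members. The log2 difference was 3.17 for Ada, -1.38 for Atic, -1.27 for Paics, -1.23 for Aprt, -1.06 for Guk1, -1.05 for Impdh2 and -0.70 for Hprt. Over all genes tested, this test called 7.71% higher and 7.62% lower. With protein-coding genes alone, Ada and Guk1 kept the call and no other member did. Ada was higher in 2 of 2 oral KO tumors than in any oral WT tumor, and the 6 others were lower in 2 of 2. Of protein-coding genes, 12.4% lay above all oral WT tumors in this way and 32.2% below. The 7 were picked by a test on these same tumors, so their separation adds no support.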

How the results depend on the processing

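With 2 oral KO tumors, 1 of them shallow, the counts of members called lower were the least stable values. In oral tumors that count, 2 as reported, was 0 with library totals in place of TMM, 0 with protein-coding genes alone, 5 in DESeq2, 10 in 1 fit of 13 tumors and 0 to 3 when single tumors were left out. For the interaction the count of 6 was 2 with library totals, 3 with at least 10 counts in every tumor, 10 in DESeq2, 1 with protein-coding genes alone, 1 with counts thinned to the smallest library and 0 to 11 when single tumors were left out. Between WT tumors of the sites, the count of 8 higher members was 5 with no count filter and 3 to 8 when single tumors were left out. The count of 1 lower was 0 with library totals, 2 with at least 10 counts in every tumor, 2 in DESeq2 and 0 to 2 when single tumors were left out. The site median of 0.28 was 0.54 with library totals. Thinned counts depended on the random draw. In 10 draws, a check chosen after seeing the data, 1 to 2 members were called lower in oral tumors, 1 to 4 lower and 1 to 2 higher for the interaction, and 7 to 10 higher and 1 to 2 lower between sites. Where 1 KO tumor was left, it was assumed to vary like the WT tumors. The cause of these shifts was not tested.

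With the tumor number as a replicate block, 0 members were called lower in oral tumors and 1 for the interaction. The numbers mark no stated pairing, and the block changed no other count of members by more than 1.5 times. Over all genes tested in the pancreas, 231 were called higher and 499 lower with the block, against 86 and 88 without it. No value changed sign among the called results, and 0 members were called in the pancreas under any of its 17 alternatives.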
